A study of Arabidopsis thaliana with 4 samples.

Results

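The genes described here are those whose transcripts stood well apart between the 2 sets of arrays of this study, with set 2 the higher, in leaves of both genotypes. A gene was taken when, on the scale of log2(signal + 50), its lower set 2 array exceeded its higher set 1 array by at least 1.5, and this gap between the nearest arrays of the 2 sets is called the margin. Of 12733 nuclear genes that could be considered, 63 met it (0.495%), and 42 (0.33%) met the mirrored margin with set 1 the higher. The difference between sets chose these genes, so their set values are given as a description, without a test. GI, THI2.2, ORA47, STZ, MSRB6, COR15B and a pair of genes near the start of chromosome 1, AT1G05575 and AT1G11210, also met the margin and were left out by the rule, as were COR15A and all other genes from AT1G01080 to AT1G11280.

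RNA came from rosette leaves of Arabidopsis thaliana at 3 weeks, grown with 16 h of light and 8 h of darkness, before bolting. AAF-OX plants overexpress AAF, a gene studied in leaf senescence, in the Col-0 background, and Col-0 is the wild type. Each genotype was measured on 2 Affymetrix arrays, 1 in each of 2 independently run sets (n = 2 per genotype, 4 arrays in all), and the replicate number in the sample names is taken here as the set. The promoter of the transgene, the number of AAF-OX lines, the number of plants pooled and what differed between the sets are not given in the sources used here. In bulk leaf RNA, fewer cells of a type and less RNA per cell cannot be told apart.

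Whether the 63 genes share a pathway was not tested, and the gene tables name only 5 of them by a symbol (CML38, AR781, CYP71B26, EXLA1 and PUB26). Family memberships given below are general background on the Arabidopsis genome and were assigned to 40 of the 63 genes after their values were known. Several of these families take part in signalling or regulation, at different steps. Calmodulin-like and other EF-hand proteins bind calcium, a fast second messenger, and VQ-motif proteins are small partners of WRKY transcription factors. U-box and BTB/POZ proteins take part in ubiquitin ligation, which marks proteins for degradation. Other families act outside the cell, such as expansin-like and subtilase proteins in the wall, or in primary and specialised metabolism.

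All levels below are MAS5 signals on a linear scale. The signal of a probe set depends on its probes as well as on its transcript, so a brighter gene below is one with a brighter probe set and is not ranked by abundance. On each array, 30.1% to 31.4% of probe sets had a signal under 50, and the arrays' median signals lay between 169 and 180.2. Log2 values correlated across probe sets at r = 0.985 between AAF-OX and Col-0 within each set and at 0.95 to 0.956 between sets. The overexpressed gene, taken here as AT1G66330, had 7706 in AAF-OX and 1337 in Col-0 of set 2, and 7442 in AAF-OX and 760 in Col-0 of set 1, so AAF-OX was the higher in both sets (log2 difference 2.85 ± 0.15, SE; limma's adjusted p = 2.53e-06).

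The margins ran from 1.51 to 3.73 with a median of 1.81, and 25 genes had a margin of at least 2. Averaged over both genotypes, set 2 was 3.00-fold to 20.0-fold above set 1 on the scale of signal plus 50, with a median of 4.36-fold. All folds between sets below are on this scale. They understate the ratio of the signals, most of all where set 1 is dim. Just inside the limit lay AT3G44450, AT3G55840 and AT5G57345, with margins of 1.51, 1.52 and 1.52, and just outside it AT3G21670, AT5G60680 and AT5G16030, with 1.499, 1.496 and 1.49. The counts of genes fall off continuously along the margin, with no break at the limit.

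**Figure D1:**
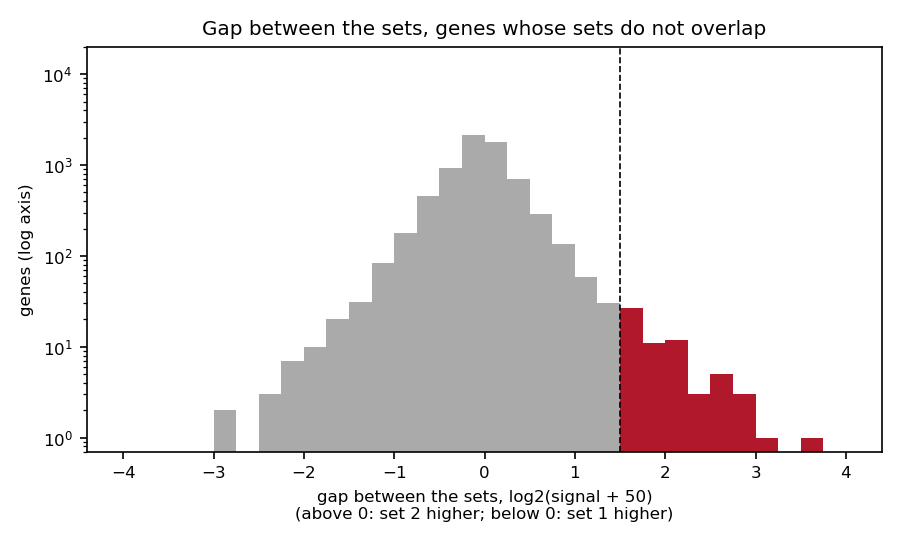
Margin between the sets on the x axis (log2(signal + 50), above 0 where both set 2 arrays were higher, below 0 where both set 1 arrays were) and number of nuclear genes on the y axis (log axis) for the 3095 genes with set 2 higher and the 3892 with set 1 higher. The dashed line is the limit of 1.5, and the red bars hold the 63 genes, which thin out up to 3.73 with no gap at the limit.

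The widest margin belonged to AT1G13650, which had 2297 in AAF-OX and 1668 in Col-0 of set 2, against 28.0 in AAF-OX and 79.5 in Col-0 of set 1. Both set 1 signals were below the medians of their arrays, 176.6 in AAF-OX and 180.2 in Col-0, and only that of AAF-OX was under 50. The fold between sets, 20.0 on the scale of signal plus 50, was the largest among the 63. No family is given for it here.

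Among 11 genes of signalling and regulation, set 2 was 3.00-fold to 7.78-fold above set 1. The VQ-motif gene AT2G22880 had the widest margin of the group, with 648 in AAF-OX and 453 in Col-0 of set 2, against 36.5 in AAF-OX and 17.1 in Col-0 of set 1. AT3G46370, of the leucine-rich repeat receptor-like kinases, which sense signals at the cell surface, was close to 0 in set 1 and had 219.7 in AAF-OX and 261 in Col-0 of set 2, against 2.67 in AAF-OX and 5.29 in Col-0 of set 1. CML38, a calmodulin-like calcium sensor, had 669.8 in AAF-OX and 538 in Col-0 of set 2, against 89.7 in AAF-OX and 68.2 in Col-0 of set 1. In each of these 3 genes, the lower set 2 array was over 5 times the higher set 1 array.

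AT2G30600, of the BTB/POZ family, was brighter, with 2844 in AAF-OX and 2187 in Col-0 of set 2, against 555 in AAF-OX and 434 in Col-0 of set 1. It was the single gene of the 63 with a second probe set of its own, and that one had 1457 in AAF-OX and 1477 in Col-0 of set 2, against 445 in AAF-OX and 271.5 in Col-0 of set 1, a margin of 1.61. Both probe sets of this gene thus met the limit. The EF-hand gene AT4G27280 had 4046 in AAF-OX and 2736 in Col-0 of set 2, against 688 in AAF-OX and 755 in Col-0 of set 1. A second VQ-motif gene, AT3G56880, was the brightest of the group, with 4723 in AAF-OX and 5645 in Col-0 of set 2, against 1329.7 in AAF-OX and 1397 in Col-0 of set 1. The folds of the 2 VQ-motif genes are not compared, since that of AT2G22880, with set 1 signals under 50, depends on the 50 added to the signal.

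The U-box ubiquitin ligase gene PUB26 had 536 in AAF-OX and 474 in Col-0 of set 2, against 90.8 in AAF-OX and 109 in Col-0 of set 1. AT5G46710, of the PLATZ zinc-binding transcription factors, had 982 in AAF-OX and 1033 in Col-0 of set 2, against 220.2 in AAF-OX and 260.2 in Col-0 of set 1. These 2 were similar in fold, 3.70 and 3.65. The BIG GRAIN-like family was also represented by 2 genes, AT5G12050 and AT1G69160. AT5G12050 had 711 in AAF-OX and 985 in Col-0 of set 2, against 161 in AAF-OX and 198 in Col-0 of set 1. AT1G69160 had 813 in AAF-OX and 537 in Col-0 of set 2, against 83.1 in AAF-OX and 150.3 in Col-0 of set 1, with AAF-OX the higher genotype in set 2 and the lower one in set 1. AT3G44450, an inhibitor of the blue-light receptors called cryptochromes, had 701 in AAF-OX and 635 in Col-0 of set 2, against 186 in AAF-OX and 191 in Col-0 of set 1, which was the smallest margin of all.

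**Figure D2:**
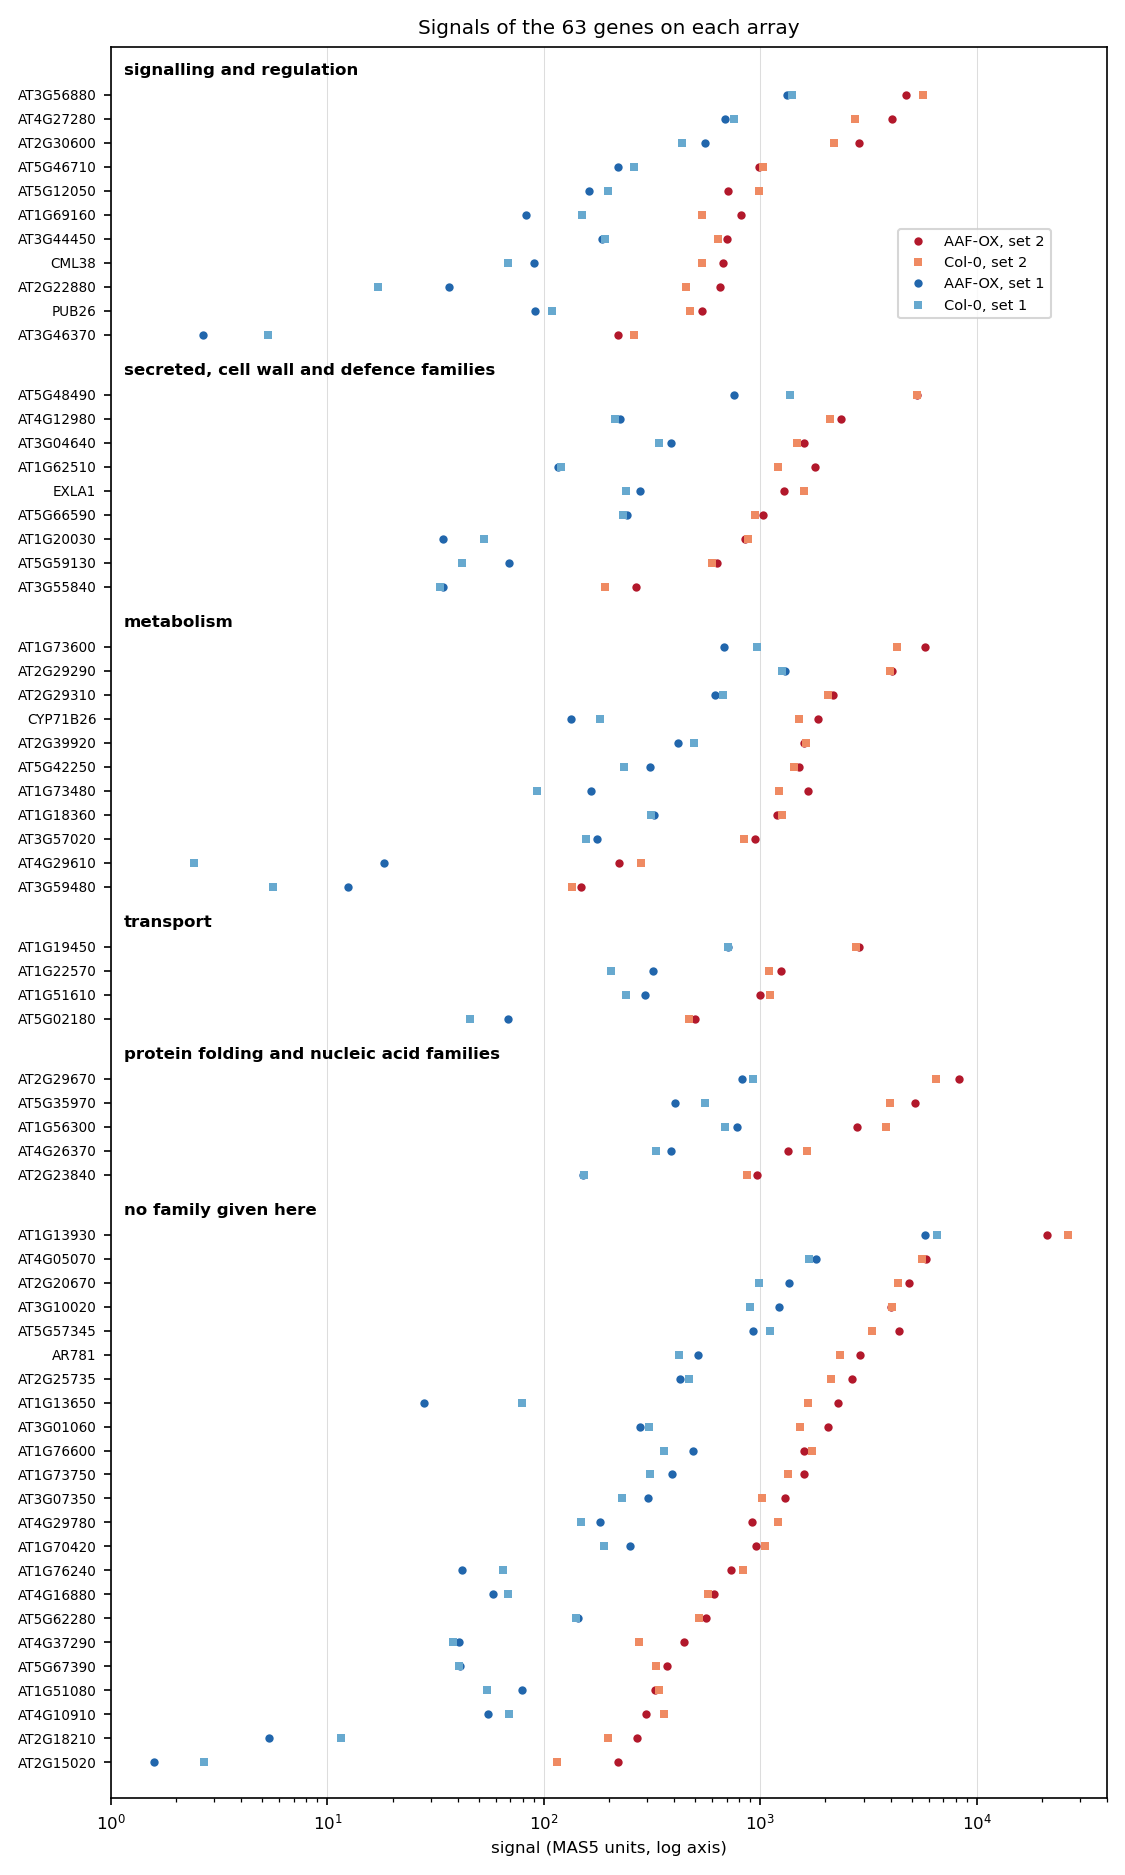
Signal on the x axis (MAS5 units, log axis) of each of the 63 genes (rows, grouped by family and ordered by set 2 signal) on the 4 arrays, with circles for AAF-OX, squares for Col-0, red shades for set 2 and blue shades for set 1. In every row both red points lie right of both blue points, as the rule requires, and the distance is widest for genes whose set 1 signals lie under 50, where a log axis spreads low values.

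In 9 genes of secreted, cell wall or defence-related families, set 2 was 3.30-fold to 9.76-fold above set 1. AT1G20030, of the thaumatin family, to which some antifungal pathogenesis-related proteins belong, had 846 in AAF-OX and 874 in Col-0 of set 2, against 34.2 in AAF-OX and 53.1 in Col-0 of set 1. AT1G62510, of the lipid transfer protein superfamily of small secreted proteins, had 1795 in AAF-OX and 1208 in Col-0 of set 2, against 116 in AAF-OX and 120.0 in Col-0 of set 1. AT4G12980, a membrane protein with cytochrome b561 and DOMON domains, had 2356 in AAF-OX and 2102 in Col-0 of set 2, against 224 in AAF-OX and 213 in Col-0 of set 1. These 3 genes had the widest margins of the group, 3.12, 2.89 and 2.97. AAF-OX was above Col-0 in both sets in AT4G12980, below it in both in AT1G20030, and above it in set 2 but slightly below it in set 1 in AT1G62510.

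A second gene of the lipid transfer superfamily, AT5G48490, was the brightest of this group and had 5289 in AAF-OX and 5321 in Col-0 of set 2, against 754 in AAF-OX and 1368 in Col-0 of set 1. Its 2 genotypes were almost level in set 2, whereas in set 1 AAF-OX was the lower. The subtilase gene AT5G59130, of the secreted serine proteases, had 629 in AAF-OX and 596 in Col-0 of set 2, against 68.8 in AAF-OX and 41.8 in Col-0 of set 1. EXLA1, an expansin-like gene of a family linked to wall loosening, had 1289.5 in AAF-OX and 1596 in Col-0 of set 2, against 277 in AAF-OX and 239 in Col-0 of set 1. The glycine-rich protein gene AT3G04640 and the gene AT5G66590, of the CAP superfamily that includes pathogenesis-related protein 1, were 3.84-fold and 3.59-fold higher in set 2. AT3G55840, of the Hs1pro-1 family related to a nematode resistance gene of beet, had 267 in AAF-OX and 191 in Col-0 of set 2, against 34.3 in AAF-OX and 33.1 in Col-0 of set 1.

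In 11 genes of metabolism, set 2 was 3.07-fold to 8.39-fold above set 1. AT1G73480, of the alpha/beta hydrolase family, which includes lipases and esterases, had 1654 in AAF-OX and 1219.9 in Col-0 of set 2, against 165 in AAF-OX and 93.2 in Col-0 of set 1. CYP71B26, a cytochrome P450 of the family that oxidises small molecules, had 1848 in AAF-OX and 1511 in Col-0 of set 2, against 133 in AAF-OX and 182 in Col-0 of set 1. AT1G73600, of the phosphoethanolamine N-methyltransferases, which make the phosphocholine headgroup of membrane lipids, had 5785 in AAF-OX and 4277 in Col-0 of set 2, against 679 in AAF-OX and 971 in Col-0 of set 1. In AT1G73480 AAF-OX was the higher genotype in both sets, and in the other 2 it was higher in set 2 and lower in set 1.

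The zinc-binding alcohol dehydrogenase family gene AT5G42250 had 1517 in AAF-OX and 1426 in Col-0 of set 2, against 311 in AAF-OX and 234 in Col-0 of set 1. AT3G57020, of the strictosidine synthase-like family, had 947 in AAF-OX and 842 in Col-0 of set 2, against 177 in AAF-OX and 156 in Col-0 of set 1. AT2G39920, of the HAD acid phosphatases, and a second alpha/beta hydrolase, AT1G18360, were 3.29-fold and 3.47-fold higher in set 2. AT4G29610, of the cytidine deaminases, which act in pyrimidine salvage, had 223 in AAF-OX and 282 in Col-0 of set 2, against 18.3 in AAF-OX and 2.43 in Col-0 of set 1. Its set 1 signals were among the lowest of the 63 genes, as were those of AT3G59480, a sugar kinase of the pfkB family, with 149 in AAF-OX and 135 in Col-0 of set 2, against 12.4 in AAF-OX and 5.61 in Col-0 of set 1.

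AT2G29290 and AT2G29310, both of the tropinone reductase-like short-chain dehydrogenases, lie close together on chromosome 2 with 1 protein-coding gene between them in the TAIR10.1 gene table. AT2G29290 had 4065 in AAF-OX and 3979 in Col-0 of set 2, against 1299 in AAF-OX and 1254 in Col-0 of set 1. AT2G29310 had 2165 in AAF-OX and 2061 in Col-0 of set 2, against 618 in AAF-OX and 669.9 in Col-0 of set 1. Their folds between sets were nearly equal, 3.07 and 3.12, at different signal levels, and cross-hybridisation between related genes was not tested. CML38 and AT1G76600 were the other pair with at most 5 protein-coding genes between them, 4 in their case.

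All 4 transporter genes lay between 3.50-fold and 5.02-fold. AT5G02180, of the amino acid transporters, had 498 in AAF-OX and 468 in Col-0 of set 2, against 68.2 in AAF-OX and 45.4 in Col-0 of set 1. AT1G19450, of the ERD6-like sugar transporters of the vacuole, had 2853 in AAF-OX and 2782 in Col-0 of set 2, against 708 in AAF-OX and 707 in Col-0 of set 1. In both of these genes the sets were far apart and the genotypes near each other in set 2. AT1G22570, of the nitrate and peptide transporter family, had 1245 in AAF-OX and 1099 in Col-0 of set 2, against 319.7 in AAF-OX and 205 in Col-0 of set 1. AT1G51610, of the cation efflux family, which moves metal ions, had 1002 in AAF-OX and 1111 in Col-0 of set 2, against 295 in AAF-OX and 240.1 in Col-0 of set 1. The sugar transporter gene had the most even genotypes, with log2 differences of 0.04 in set 2 and 0.00 in set 1.

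The 5 genes of protein folding and nucleic acid families had folds of 3.78 to 8.72. AT2G29670, a protein with tetratricopeptide repeats, had 8280.0 in AAF-OX and 6475 in Col-0 of set 2, against 820.2 in AAF-OX and 924 in Col-0 of set 1. AT5G35970, of a helicase-like family, had 5161 in AAF-OX and 3973 in Col-0 of set 2, against 404 in AAF-OX and 557 in Col-0 of set 1. AT1G56300, of the DnaJ co-chaperones, had 2811 in AAF-OX and 3827 in Col-0 of set 2, against 783 in AAF-OX and 684 in Col-0 of set 1. The first 2 had AAF-OX as the higher genotype in set 2 and the lower one in set 1, and the DnaJ gene had the opposite order. AT2G23840, of the HNH endonuclease family, had 967 in AAF-OX and 869 in Col-0 of set 2, against 151 in AAF-OX and 153 in Col-0 of set 1, and AT4G26370, of the NusB antitermination family, was 3.78-fold higher in set 2.

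For 23 genes no family is given here, and their folds ran from 3.06 to 20.0. AT1G13930 had the highest signals of all 63 genes, with 21106 in AAF-OX and 26397 in Col-0 of set 2, against 5766 in AAF-OX and 6522 in Col-0 of set 1. AT2G15020 had the lowest mean signal in set 1, with 219 in AAF-OX and 115 in Col-0 of set 2, against 1.58 in AAF-OX and 2.69 in Col-0 of set 1. Where set 1 is this dim the fold of signal plus 50 (4.05 for AT2G15020) understates the ratio of the signals. AT1G76240, the widest margin here after AT1G13650, had 736 in AAF-OX and 829 in Col-0 of set 2, against 41.8 in AAF-OX and 64.6 in Col-0 of set 1. AT4G16880 had 609 in AAF-OX and 573 in Col-0 of set 2, against 58.1 in AAF-OX and 68.5 in Col-0 of set 1. AT3G01060 had 2055 in AAF-OX and 1528 in Col-0 of set 2, against 278 in AAF-OX and 307 in Col-0 of set 1. In these 3 genes the lower set 2 signal was over 4 times the higher set 1 signal. AR781 had 2889 in AAF-OX and 2325 in Col-0 of set 2, against 516 in AAF-OX and 419 in Col-0 of set 1, with AAF-OX the higher genotype in both sets. AT2G25735 had 2645 in AAF-OX and 2131 in Col-0 of set 2, against 428 in AAF-OX and 467 in Col-0 of set 1. AT4G37290 had 443 in AAF-OX and 274 in Col-0 of set 2, against 40.4 in AAF-OX and 38.2 in Col-0 of set 1, and its genotypes stood further apart in set 2 than in set 1. The other 14 genes without a family had folds of 3.06 to 5.12. Among them AT2G20670 had 4845 in AAF-OX and 4310.4 in Col-0 of set 2, against 1351 in AAF-OX and 989 in Col-0 of set 1, and AT3G07350 had 1298 in AAF-OX and 1021 in Col-0 of set 2, against 304 in AAF-OX and 229 in Col-0 of set 1, with AAF-OX the higher genotype in both sets of each.

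Of the 63 genes, 35 had a signal of at least 1000 on both set 2 arrays and 4 had one on all 4 arrays. In 18 genes both set 1 arrays were under 100, and in 9 both were under 50. The median over the genes of the set means was 1227 in set 2 and 237.8 in set 1. Over all 13217 named nuclear genes it was 122.6 in set 2 and 129.3 in set 1, so that the members' median stood above 90.9% of genes in set 2 and above 60.7% in set 1. A minimum distance on a log scale with 50 added favours genes that are bright in set 2.

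Whether these genes, so far apart between sets, also differed by genotype within the sets is the question that the overexpression design puts to them. No difference was detected in any of the 61 that reached a mean signal of 100 and were tested: limma, fitted with a term for the set, called 0 of them at an adjusted p under 0.05, against 210 of all 13592 tested probe sets (1.55%, of which 1.34% higher and 0.206% lower in AAF-OX). With a share of 1.55% over all, a count of 0 among 61 genes does not set them apart. At an unadjusted p under 0.05, 10 of the 61 (16.4%) passed, 7 with AAF-OX higher and 3 with it lower, against 11% of all tested probe sets. Without the block, the difference between sets by which these genes were chosen enters the error, so that fit, in which 0.861% of all tested probe sets passed at an unadjusted p under 0.05, could not call them and bears on none of them. The labels do not say that the sets came from separate plants, so these p-values measure the spread between the arrays, which may be technical. The 2 genes under the signal limit, AT2G15020 and AT3G59480, were not tested. Because the rule compares the nearest arrays of the 2 sets, a large genotype difference narrows the margin, and genes that have one are less likely to be chosen.

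The largest difference among the tested genes was in AT1G73480, the alpha/beta hydrolase gene, whose signals averaged 909 ± 1053 in AAF-OX and 657 ± 797 in Col-0 (SD over the 2 sets, most of which is the difference between them). The log2 difference was 0.42 in set 2 and 0.58 in set 1, a mean of 0.50 ± 0.14 (SE; limma's unadjusted p = 0.00366, adjusted p = 0.116). AAF-OX was the higher genotype in both sets, and the 95% interval, before any correction for the number of tests, was 0.20 to 0.81. No other gene of the 61 tested had a smaller adjusted p.

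After it came AT2G22880, the VQ-motif gene (log2 0.42 ± 0.18, 0.47 in set 2 and 0.37 in set 1), AT1G22570, of the nitrate and peptide transporters (0.36 ± 0.14, 0.17 in set 2 and 0.54 in set 1), and AT2G30600, of the BTB/POZ family (0.35 ± 0.12, 0.37 in set 2 and 0.32 in set 1). Their adjusted p from limma were 0.414, 0.357 and 0.248. The second probe set of AT2G30600 had -0.02 in set 2 and 0.62 in set 1, so the 2 probe sets of this gene differed on the genotype difference in set 2.

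On the other side, with AAF-OX lower in both sets, were AT5G48490, of the lipid transfer superfamily (log2 -0.41 ± 0.16, -0.01 in set 2 and -0.82 in set 1), AT5G12050, of the BIG GRAIN-like family (-0.34 ± 0.14, -0.44 in set 2 and -0.23 in set 1), AT1G13930 (-0.25 ± 0.10, -0.32 in set 2 and -0.18 in set 1) and AT1G76240 (-0.24 ± 0.16, -0.16 in set 2 and -0.32 in set 1). Limma's adjusted p for these 4 were 0.331, 0.402, 0.32 and 0.677. The difference of AT5G48490 came almost wholly from set 1.

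**Figure D3:**
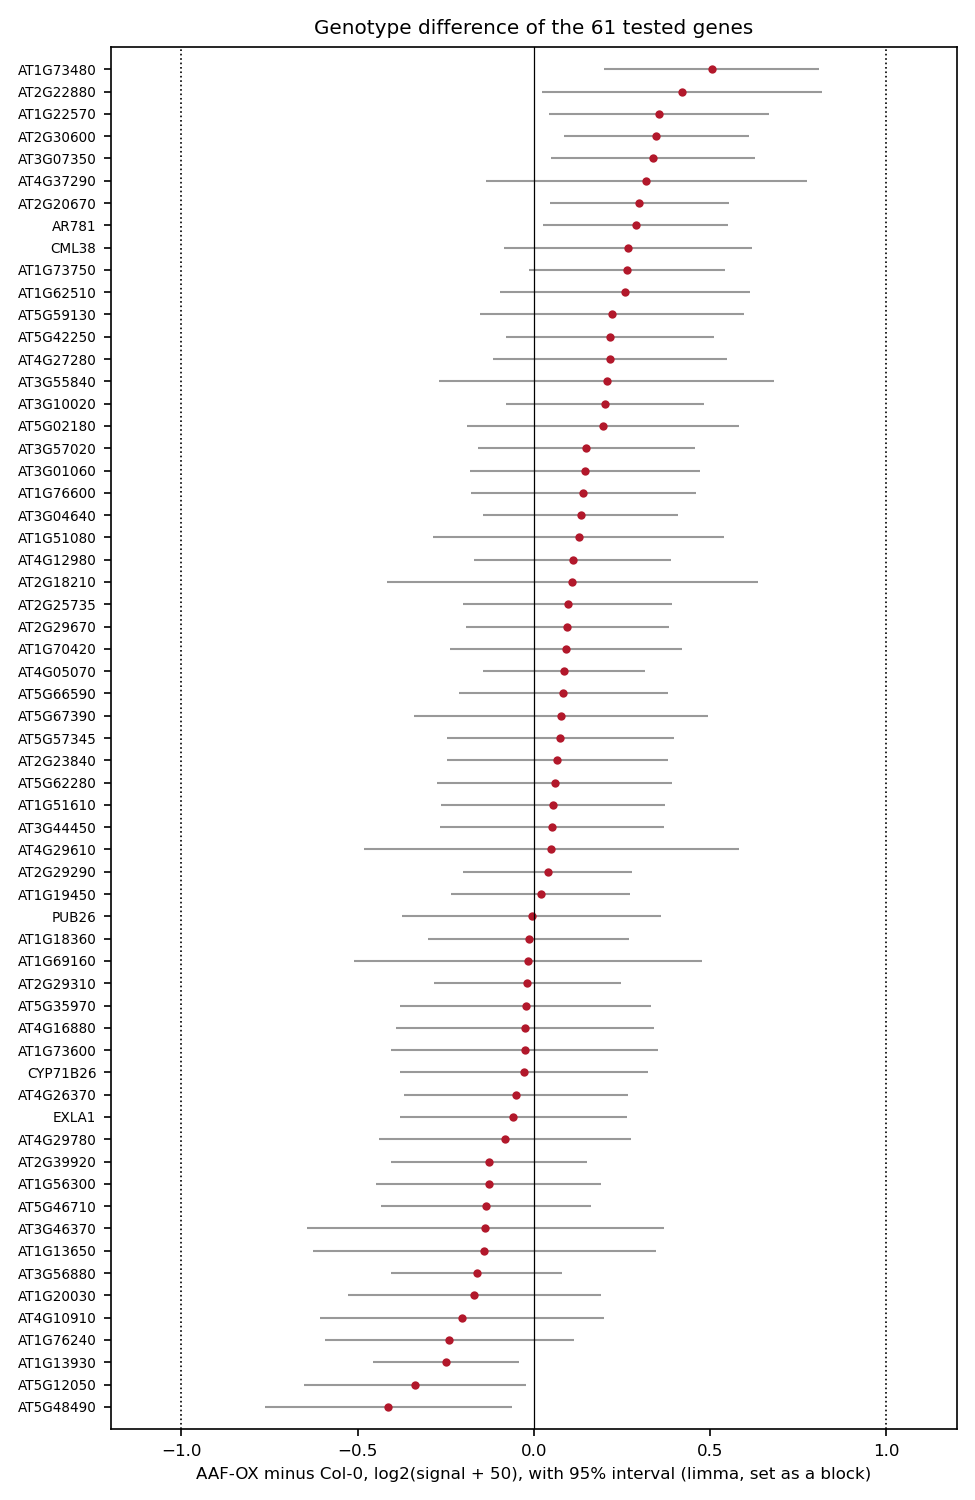
AAF-OX minus Col-0 on the x axis (log2(signal + 50), mean of the 2 sets) for the 61 tested genes in rows, with points for the fitted difference and bars for its 95% interval from limma with the sets as a block. All bars lie between the dotted lines at -1 and 1, and 10 of them leave out 0 before correction for the number of tests.

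The size of the difference that these arrays leave possible was limited on the scale of signal plus 50. All 61 intervals stayed within a log2 of -1 to 1, that is under 2-fold on this scale. Their extremes were -0.76 and 0.82, and 44 stayed under 1.5-fold in either direction. For dim genes this scale understates the ratio of the signals. In set 1, AT4G29610 had 18.3 in AAF-OX and 2.43 in Col-0, and AT1G13650 had 28.0 in AAF-OX and 79.5 in Col-0. The rule also disfavours genes with a large genotype difference, and the intervals are not corrected for the number of tests. Most of the error estimate behind them is borrowed across probe sets, since the fit has 1 residual degree of freedom per gene and 10.7 borrowed. An interval can therefore be narrower than the disagreement of a gene's own 2 sets.

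AAF-OX was the higher genotype in both sets in 24 of the 63 genes (38.1%) and the lower in both in 10 (15.9%), against 24.4% and 31.3% of all tested probe sets. In 29 genes (46.0%) the 2 sets disagreed in sign, against 44.3%. Within set 2 alone AAF-OX was higher in 42 genes (66.7%, against 46.8%), and within set 1 in 35 (55.6%, against 46.3%). The median log2 difference of the 63 genes was 0.11 in set 2 and 0.02 in set 1, against -0.02 in each set over all tested probe sets. The 2 sides are not of like sets. The 63 are named nuclear genes with 1 probe set each, 2 of them under the signal limit. The tested probe sets all reached that limit and were not restricted to named nuclear genes or to 1 per gene. These are counts over genes measured on the same 4 arrays, and the genes are not independent of each other.

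By family group, AAF-OX was higher in both sets in 3 of 11 signalling and regulation genes and lower in both in 4. For the 9 secreted, wall and defence-related genes these counts were 5 and 2, for the 11 metabolism genes 5 and 1, and for the 4 transporters 3 and 0. None of the 5 genes of protein folding and nucleic acid families kept 1 direction in both sets. No tested gene of any group passed the adjusted threshold between genotypes, against 1.55% of all tested probe sets.

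**Figure D4:**
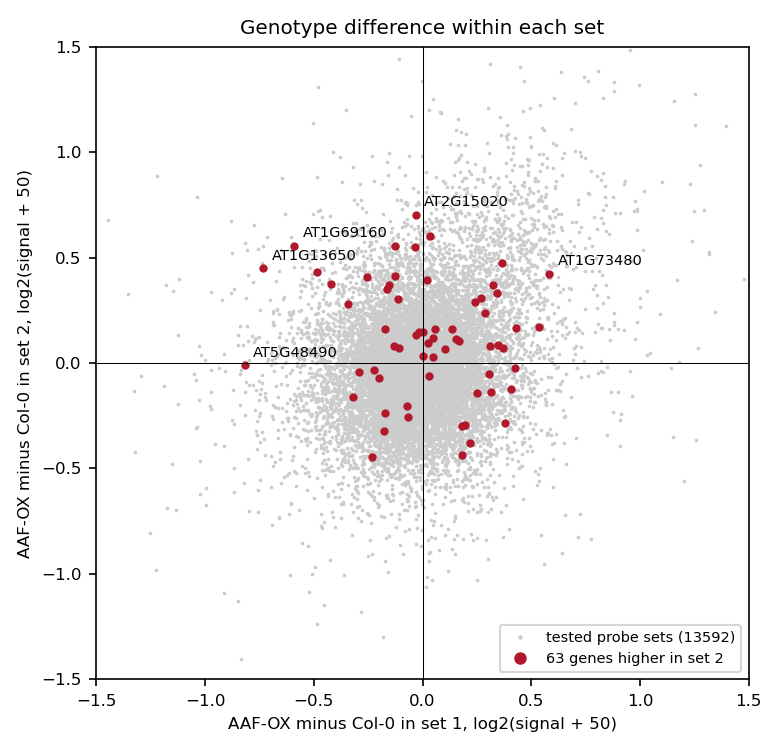
AAF-OX minus Col-0 in set 2 (y axis) against the same difference in set 1 (x axis), both on log2(signal + 50), with red points for the 63 genes and grey points for the 13592 tested probe sets, cropped at 1.5 on either side. The red points stay within 0.82 of 0 on both axes and lie in all 4 quadrants.

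The difference between sets had a median over the 63 genes of 2.06 in AAF-OX and 2.08 in Col-0 on the log2 scale. The rule required at least 1.5 in both genotypes, so that these values are a description of the genes chosen and similar medians are partly built in. It was larger in AAF-OX in 35 genes, and in 45 genes the 2 genotypes differed by under 0.5. Of the 18 genes that differed by 0.5 or more, 14 had the larger difference in AAF-OX and 4 in Col-0. With 1 array for each genotype and set, none of this could be tested.

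AT1G13650 varied most, with a set difference of 4.91 in AAF-OX and 3.73 in Col-0. It was 2.70 in AAF-OX and 1.55 in Col-0 for AT1G69160, 3.00 in AAF-OX and 2.08 in Col-0 for AT1G73600, and 2.73 in AAF-OX and 1.92 in Col-0 for AT5G48490. In AT1G13650, AT1G69160 and AT1G73600 the genotype difference had opposite signs in the 2 sets, at 0.45, 0.56 and 0.43 in set 2 and -0.73, -0.59 and -0.48 in set 1. These are the 3 genes in which the smaller of the 2 opposite differences was largest.

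The genes lay on all 5 nuclear chromosomes, with 19 on chromosome 1, 12 each on chromosomes 2 and 3, 9 on chromosome 4 and 11 on chromosome 5. Their shares were 30.2%, 19.0%, 19.0%, 14.3% and 17.5%, against 23.0%, 17.0%, 21.4%, 15.2% and 23.4% of the 12733 genes considered. All 63 are protein-coding. None is read from a probe set whose name carries the _s_at or _x_at mark for binding several transcripts. Cross-hybridisation of the probe sets used was not tested. The median gene span in the TAIR10.1 table was 1710 bases, against 2111 bases for all named nuclear genes, and 24 genes (38.1%) spanned under 1500 bases, against 28.0%. The shortest was AT2G22880, with 345 bases. For the 25 genes with a margin of at least 2 the median span was 2093 bases, close to that of all genes.

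CML38 was also the single member found on the 14 lists of pathway genes drawn up for this comparison, which hold 126 memberships. Only 17 of these are counted as named on the array here, over 8 lists. The lists for the evening and morning clock, abscisic acid, heat shock, salicylic acid and nitrate had none. Genes left out by the rule are not among the 17, although GI, STZ, ORA47 and COR15B are named on the array and met the margin. A list with none is therefore no sign that its pathway lacks genes far apart between sets. Of the 17, 15 were tested. Limma's blocked fit called 0 of these between genotypes (against 1.55% of all tested probe sets), and 1 had an unadjusted p under 0.05. In the list of rapid touch and wound genes, CML37, a calcium sensor gene related to CML38, had 45.7 in AAF-OX and 14.5 in Col-0 of set 2, and 30.4 in AAF-OX and 39.0 in Col-0 of set 1, so its sets overlapped. WRKY53, a transcription factor gene of the same list, had 1689 in AAF-OX and 1041 in Col-0 of set 2, and 624 in AAF-OX and 592 in Col-0 of set 1, with the sets apart by 0.70. COR27 of the cold list and DFR, of anthocyanin synthesis, met the mirrored margin, with set 1 the higher.

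Leaf identity was checked on genes of the light-harvesting antenna. LHCB4.1 and LHCB4.2, the 2 of 7 leaf markers named here, summed to 54999 in AAF-OX and 59186 in Col-0 of set 2 and to 36427 in AAF-OX and 43925 in Col-0 of set 1. Of 4 root markers, PYK10 and NAI2 were named, and they summed to 1719 in AAF-OX and 2286 in Col-0 of set 2 and to 839 in AAF-OX and 1415 in Col-0 of set 1. Both sums were higher in set 2 in each genotype, the root sum through PYK10 (1527 in AAF-OX and 1974 in Col-0 of set 2, against 629 in AAF-OX and 1075 in Col-0 of set 1), and their part in the differences between sets was not tested. FAMA of guard cells (listed as FMA) had 193.1 in AAF-OX and 289.1 in Col-0 of set 2 and 305.9 in AAF-OX and 360.0 in Col-0 of set 1, and TRY of trichomes lay between 89.7 and 135.9 on all arrays. No marker of flowers, meristem or seeds was named here, and no named marker was at 0.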

How the data were processed

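RNA of 4 leaf samples, 2 AAF-OX and 2 Col-0, had been hybridised to 1-colour Affymetrix arrays with 22810 probe sets. The deposited values are MAS5 signal intensities, per the submitters' processing notes, which name MAS5 with no version. The deposited intensities have trimmed means of 500 on each array, leaving out 2% at either end, and were used as they stood. The arrays' number, 4, limits the precision. Leaving out 64 control probe sets, 13513 of 22746 probe sets carried 1 gene in the platform annotation, and 13436 of these matched the TAIR10.1 gene table by gene identifier. For genes with several probe sets, the one with the highest mean signal was used.

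Genotypes were compared on log2(signal + 50) with limma 3.58.1 in R 4.3.3, with the set as a block, an intensity trend and Benjamini-Hochberg adjustment over the 13592 probe sets with a mean signal of at least 100. The 2 arrays of a set shared their deviations (r = 0.856 across probe sets), and the pairing rests on the submitters' mention of independent sets and on the replicate numbers. The genotype comparison was also tested on simulated data with 13592 probe sets. The blocked fit recovered 92% of 50 differences of 0.585 and 100% of 50 each of 1, 2 and -1, with 12 false calls among 208. The simulated noise depended on signal level alone, without the spread between genes of the real data, and the changed probe sets were drawn at random. These shares therefore do not say how often such differences would be called among the members. The members, lists and tests were chosen with earlier results of these data known. Named for genotype were the 4 highest and 4 lowest differences with 1 direction in both sets, the 3 largest with opposite directions and the 4 largest differences in set change, and for level the widest margins of each family group, the brightest and dimmest genes and neighbouring pairs. Other genes were named after their values were seen. Other pseudocounts, scalings, filters, margins and fits were tried, as was leaving out each array. Functional classes by annotation text and a promoter motif search were planned and not run, since neither text nor sequence was used here.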

Additional observations from a re-analysis of the deposited data

Results flagged for a closer look

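Probe sets without a gene, or with several, in the annotation used here were not part of the comparisons. Of these 9233 probe sets, 83 (0.899%) met the same margin of at least 1.5 with set 2 the higher, against 0.495% of the named genes considered. The 2 shares are not of like sets. The first counts every such probe set, and the second counts 1 probe set per nuclear gene after the left-out genes were removed. The widest margin among them was 4.11, in a probe set with 1884 in AAF-OX and 1459.6 in Col-0 of set 2, against 37.3 in AAF-OX and 4.81 in Col-0 of set 1. Which single gene each of these probe sets reads is not given in the annotation used here.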

How the results depend on the processing

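The number of genes that met the rule depended on the constant added to the signal and on the margin. It was 63 as reported, 217 with a pseudocount of 1, 25 with a margin of at least 2 and 152 with a margin of at least 1. It stayed between 46 and 68 with a pseudocount of 100, quantile normalization, median centring or the dimmest probe set of a gene, was 71 with the left-out genes kept, and was 77 to 81 with any 1 array left out. Quantile normalization shared 62 of the 63 genes, a pseudocount of 100 kept 46, and the other settings with a margin of 1.5 or less kept all 63. For a pseudocount of 1, a margin of at least 1 and 1 array left out, keeping all 63 was fixed in advance. These settings can only widen a member's gap or loosen the limit. A pseudocount of 100 can only narrow the gaps, and the dimmest probe set could change only AT2G30600 among the 63.

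None of the members was called between genotypes under any limma setting that kept the block, with 6 to 10 of them at an unadjusted p under 0.05. These settings tested 53 to 63 members. The fit as reported called 1.55% of all tested probe sets, so 0 among so few genes does not set the members apart. Over all tested probe sets, the 210 calls became 76 with a pseudocount of 1, 137 with median centring, 18 with no filter on low values, 21 with no intensity trend, 276 with a pseudocount of 100, 293 with quantile normalization and 233 with a stricter filter on mean signal, and the causes were not tested. AAF-OX was higher in both sets in 24 genes and lower in 10 as deposited, 25 and 9 after quantile normalization, and 25 and 10 after median centring. The median difference over the members, 0.08, was 0.02 to 0.11 with 1 array left out.

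Without the replicate block 0 probe sets were called, and 117 (0.861%) passed at an unadjusted p under 0.05. With any array left out as well the count was 0 (0 to 0). On simulated data the unblocked fit recovered 0% of differences of 1, 2 and -1, so these counts of 0 say nothing about the genes. An unblocked comparison of 3 arrays sets 1 genotype's array of a single set against both sets of the other, so the difference between sets enters it by construction. The 8 genes named for their genotype difference each reversed there under 2 settings. With AAF-OX of set 2 left out, and then with Col-0 of set 1 left out, the log2 differences were -0.99 and -1.07 in AT1G73480, -1.09 and -1.03 in AT2G22880, -0.55 and -0.73 in AT1G22570, and -0.78 and -0.76 in AT2G30600. With Col-0 of set 2 left out, and then with AAF-OX of set 1 left out, they were 1.23 and 1.31 in AT1G76240, 0.76 and 0.68 in AT1G13930, 0.69 and 0.59 in AT5G12050, and 0.55 and 0.95 in AT5G48490. Their other values from unblocked fits of 3 arrays kept the direction and were several times larger, at 1.26 to 2.08 in the first 4 genes and -1.79 to -1.18 in the last 4. With the block kept, all 8 kept their direction under the settings run. With 1 array left out the values are those of a single set, as given in the report (-0.82 and -0.01 in AT5G48490). The 8 genes were chosen for having 1 direction in both sets, so most of these settings could not reverse them. Only quantile normalization and median centring could have done so. Dim signals, 2 arrays a genotype and 1 residual degree of freedom limit all of this.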
